A study of Homo sapiens with 28 samples.

Results

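A set of 8 genes grouped apart from the inflammatory genes was read across all libraries of a study of U937 clones. In these clones single subunits of NF-kB were knocked out. The genes were chosen because earlier results of these same data placed them higher in knockout than in control clones. The genes are MST1, RAPGEF4, PRXL2A, ALDH4A1, PGGHG, ERLIN1, EHMT2 and CCNA1, taken by symbol from the 56809 genes of the deposited tables, and all 8 passed the filter on low counts that left 18624 genes. The choice rested on the comparison of knockout with control, so the values of that comparison are a description and carry no test. Tests were kept for contrasts, readouts and genes other than those of the choice. They are the effect of lipopolysaccharide, the transcript length behind each gene's reads, related genes and chromosomal neighbours. Related genes and neighbours were tested in the same comparisons of knockout with control that chose the 8 genes. The lists of related genes were written with earlier results of these data known. The lipopolysaccharide tests share their libraries with the comparisons that chose the genes, so they are not independent of the choice.

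The study sequenced polyadenylated RNA of 28 libraries from 14 clones of U937, a human line of monocytic character. Each clone gave 1 untreated library and 1 treated with lipopolysaccharide (LPS, a bacterial outer membrane component that signals through the receptor TLR4) at 500 ng/ml, both labelled 6 h. The 3 control clones (CTR) had been targeted with guide RNAs of no specific target. The knockouts were p65 with 3 clones, and p50, p52, cREL and RELB with 2 clones each. A group of genotype and treatment therefore holds 2 or 3 libraries, each from a different clone, and its spread includes whatever differs between clones of the line. The p-values rest on that spread, pooled over the groups. The main fit, with edgeR, took the 28 libraries as separate and had no term for clone, although each clone gave 2. It had 14 residual degrees of freedom, where sums per clone left 6. Transcript lengths were tested over clone means. The subunits of the transcription factor NF-kB pair with each other, stay in the cytoplasm bound to inhibitors, and move to the nucleus after signals such as LPS. The genes it is best known to drive encode cytokines, chemokines and its own inhibitors, none of which is among the genes described here.

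The libraries held between 12643438 and 22122428 estimated counts. The labels name 3 sample batches. Batch B held CTR replicate 2 and 1 clone each of p50, p52, cREL and RELB, batch C held CTR replicates 1 and 3 with p65 replicates 2 and 3, and batch A held 1 clone of each knockout and no control. The mRNA of the targeted gene did not follow every label. RELA, which encodes p65, stood at 43.7 TPM (a level per transcript length that sums to the same total in each library) untreated and 52.1 TPM with LPS in p65 replicate 1, above the 23.2 to 38.3 TPM of the controls, while p65 replicates 2 and 3 had 3.20 to 8.19 TPM. The clone labelled p65 replicate 1 therefore carries a label that its RELA mRNA does not bear out, and the members' p65 levels are given per clone. RELB mRNA in RELB replicate 2 and NFKB2 mRNA in the untreated p52 clones lay within the range of the controls, whereas NFKB1 in the p50 clones and REL in the cREL clones lay below it in all libraries. A knockout by a small deletion can leave the mRNA in place, so mRNA is a limited check of these labels. Of 18 monocytic markers, LYZ had a median of 990 TPM and ELANE of 2183 TPM, MPO reached at most 0.282 TPM, and the list summed to 3442 to 7982 TPM in controls and 4158 to 9197 TPM in knockouts. The T and NK cell list, at 281 to 530 TPM in controls and 106 to 500 TPM in knockouts, was mostly NKG7, and CD3D and TRBC1 were at 0 throughout. The part of these markers in the results was not tested. In bulk RNA, fewer cells of a type and less RNA per cell cannot be told apart.

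The promoters of 6 of the 8 genes are in the RefSeq table for GRCh38.p14. They were searched over the 250 bases before the first start listed for each gene, on both strands. RAPGEF4 has 4 listed starts and PRXL2A and ALDH4A1 have 2 each, and their other starts were not searched. None of the windows searched held the NF-kB consensus, which 5.05% of 27305 promoters hold. The GC box GGGCGG was found in 5 of the 6, against 42.3% of all promoters, with 5 matches in RAPGEF4, 2 each in MST1 and PRXL2A, 1 each in ALDH4A1 and EHMT2, and none in CCNA1. The GC content of these windows was 82% in RAPGEF4, 73.6% in PRXL2A, 72.8% in CCNA1, 70.8% in MST1, 63.2% in EHMT2 and 55.6% in ALDH4A1, against a median of 58% over all promoters. The stretches printed here belong to RAPGEF4, highest in RELB clones, PRXL2A, high in clones of several knockouts, and CCNA1, high in 2 clones only. They are the parts of those windows outside annotated exons, 5′ to 3′ on the gene's strand (plus for all 3), with GGGCGG on either strand in capitals. RAPGEF4 is shown at chr2:172735595-172735840, PRXL2A at chr10:80408301-80408485 and CCNA1 at chr13:36431777-36431902. By the GENCODE coordinates given below for each gene, all 3 stretches lie inside the gene, after its first base. Those first bases are 172735274 for RAPGEF4, 80407829 for PRXL2A and 36431520 for CCNA1. The sequence before them was not searched.
RAPGEF4: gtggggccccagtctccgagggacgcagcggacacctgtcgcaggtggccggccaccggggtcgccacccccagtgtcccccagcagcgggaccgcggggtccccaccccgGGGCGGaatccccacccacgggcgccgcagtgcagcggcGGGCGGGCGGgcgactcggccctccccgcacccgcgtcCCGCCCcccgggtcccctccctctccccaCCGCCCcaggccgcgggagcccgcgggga
PRXL2A: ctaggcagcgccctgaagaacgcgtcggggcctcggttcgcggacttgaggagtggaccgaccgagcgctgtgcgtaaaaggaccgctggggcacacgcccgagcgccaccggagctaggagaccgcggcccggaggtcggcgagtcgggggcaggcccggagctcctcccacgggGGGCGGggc
CCNA1: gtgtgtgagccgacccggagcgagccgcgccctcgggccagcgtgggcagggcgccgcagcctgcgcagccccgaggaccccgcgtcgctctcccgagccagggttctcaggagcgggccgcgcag
The capitals fall at 5 places in the RAPGEF4 stretch, 2 of them overlapping, at 1 place in the PRXL2A stretch and at none in the CCNA1 stretch. A match of letters describes the window only.

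Fitted with batch as a term, all 80 values (8 genes, 5 knockouts, untreated and LPS) were above 0, against 48.9% of values over all genes tested, with a median log2 fold of 0.93. Of the 80, 19 passed an adjusted p of 0.05 in edgeR's quasi-likelihood test with Benjamini-Hochberg adjustment, against 0.150% over all genes. In RELB with LPS 2 of the 8 genes passed, where 0.0483% of all genes did. These counts come from the contrasts that chose the genes, and nothing is read from them. Without the batch term, 62 of the 80 were above 0, and the 18 that were not belonged to CCNA1 (8), EHMT2 (7), ALDH4A1 (1), ERLIN1 (1) and RAPGEF4 (1). The 8 genes differed in how many of the 11 knockout clones stood above all 3 controls of the same treatment in both treatments, in CPM (counts scaled to library size). That number was 10 for MST1, 9 for PGGHG, 8 for ALDH4A1, 7 for PRXL2A, 5 for RAPGEF4, 4 for ERLIN1, 3 for EHMT2 and 2 for CCNA1. Over all genes tested, 0.161% reached 10 or more clones, 0.591% reached 9, 1.21% reached 8 and 2.30% reached 7 or more. The shares were 7.18% for 5 or more clones, 11.8% for 4, 19.0% for 3 and 32.2% for 2 or more. Whole groups also lay apart often. In untreated libraries, all of a knockout lay above all controls in CPM for 5.32% (p65) to 15.5% (RELB) of genes tested. Overlap is described below in TPM and over both treatments, for which no share over all genes is given.

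**Figure D1:**
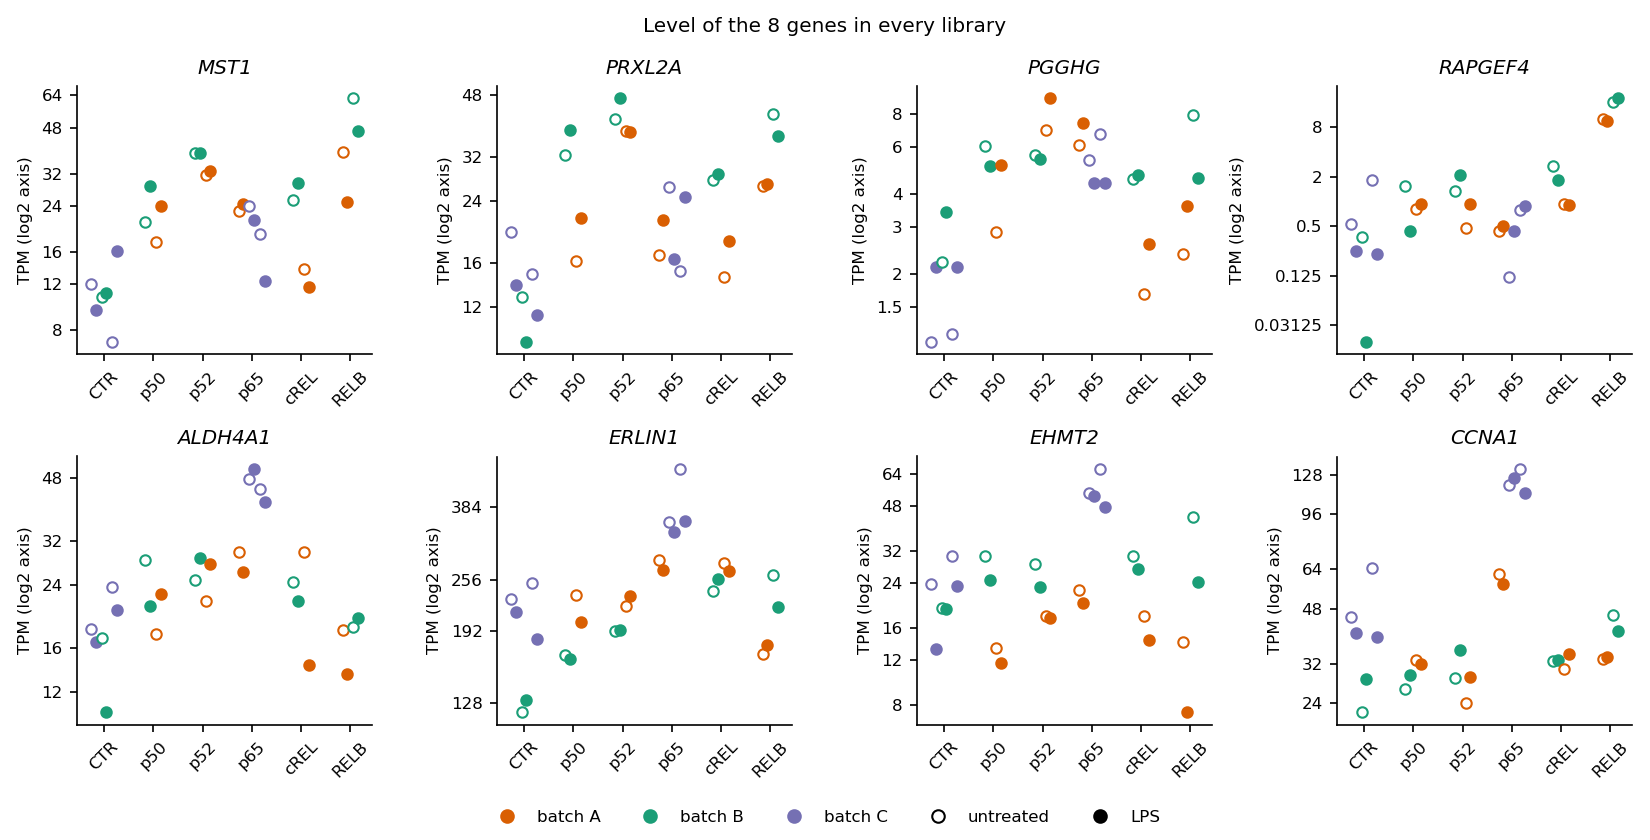
TPM (log2 axis) of the 8 genes in each of the 28 libraries, by genotype, with open circles for untreated and filled circles for LPS libraries and colours for the sample batch. MST1, PRXL2A and PGGHG were high in clones of several knockouts, RAPGEF4 in RELB clones at 9.46 to 17.9 TPM, and CCNA1 in p65 replicates 2 and 3 at 112 to 134 TPM.

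MST1 encodes macrophage stimulating protein, a secreted, kringle-bearing relative of hepatocyte growth factor that binds the receptor tyrosine kinase RON. It is not the Hippo pathway kinase STK4, for which the same letters have been used. The gene lies on chromosome 3, 49683947 to 49689501, minus strand (GENCODE 29, GRCh38). MST1 stood at 12.04, 10.7 and 7.19 TPM in the untreated controls and at 9.56, 11.1 and 16.2 TPM in the LPS-treated ones. In the RELB clones it was 38.8 and 62.4 TPM untreated and 24.9 and 46.8 TPM with LPS. The p52 clones had 38.3 and 31.6 TPM untreated and 38.4 and 32.8 TPM with LPS. All 8 of these RELB and p52 libraries lay above all 6 control libraries. Untreated and in CPM, 15.5% of genes tested lay so in RELB and 12.8% in p52. The p50 clones followed at 20.9 and 17.5 TPM untreated and 28.8 and 24.0 TPM with LPS. In the p65 clones MST1 was 23.0, 24.1 and 18.8 TPM untreated and 24.4, 21.1 and 12.3 TPM with LPS, the last below the highest control. The cREL clones split, with 25.3 and 29.5 TPM in replicate 1 and 13.7 and 11.7 TPM in replicate 2, and cREL replicate 2 was the clone of the 11 that in CPM did not stand above the controls in both treatments. The fitted log2 folds ran from 0.80 ± 0.23 (SE) in p65 with LPS to 1.90 ± 0.28 in untreated RELB. By mean level the untreated RELB group came first at 50.6 ± 16.7 TPM (SD, n = 2), overlapping with the RELB group under LPS, and the 2 CTR groups came last, at 12.3 ± 3.46 TPM with LPS and 9.99 ± 2.51 TPM untreated (SD, n = 3 each).

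MST1 has close copies. MST1L, a copy on the same list of related genes, lay at 0.902 to 3.07 TPM in controls and 1.51 to 4.88 TPM in knockouts, and none of its 10 knockout comparisons passed (log2 folds −0.06 to 1.09, lowest adjusted p = 0.309 in edgeR's quasi-likelihood test). By value 9 of the 10 MST1L folds were above 0, with a median of 0.76. In TPM 7 of 11 knockout clones stood above the controls in both treatments. The pseudogene MST1P2, named here after its values were seen, lay at 0.960 to 1.5045 TPM in the 6 controls and 1.74 to 5.6003 TPM in the 22 knockout libraries, with no overlap. No share over all genes is given for such a separation in TPM, so nothing is read from it. Reads shared between the 3 genes cannot be told apart in these tables, so the level of each is uncertain. MST1 also touches APEH at its end and RNF123 at its start, on the opposite strand, and whether counting used strand is not given in the sources used here. Both neighbours were slightly higher by value, APEH in 10 of 10 comparisons (log2 0.11 to 0.50) and RNF123 in 9 of 10 (−0.04 to 0.58), and neither passed in any. Of the 9 measured genes of the MSP and RON list, none passed in the 10 knockout comparisons, and 39 of their 90 folds were above 0.

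RAPGEF4 encodes EPAC2, a guanine nucleotide exchange factor that loads Rap GTPases when cAMP binds it. It lies on chromosome 2, 172735274 to 173052893, plus strand. RAPGEF4 was near absent from the controls, with 4, 5 and 16 estimated counts untreated (0.531, 0.373 and 1.84 TPM) and 2, 1 and 3 counts with LPS. The RELB clones had 154 and 134 counts untreated (10.1 and 16.0 TPM) and 108 and 219 with LPS (9.46 and 17.9 TPM). No library of another genotype exceeded 2.66 TPM, so the 4 RELB libraries, 1 clone from batch A and 1 from batch B, did not overlap the other 24. Untreated and in CPM, 15.5% of genes tested had all RELB libraries above all controls. The share with RELB above all 24 other libraries is not given. Per unit of depth, the summed RELB counts were 20.1 times those of the controls untreated (95% interval 13.4 to 31.7, 288 against 25 counts) and 95.4 times with LPS (43.4 to 262, 327 against 6), intervals that cover counting error only. The fitted log2 folds of 4.48 untreated and 6.63 with LPS depend on the prior count because so few control reads were present. They were 3.50 and 5.598 without CTR replicate 2 and 5.41 and 7.56 without p65 replicate 1, and without CTR replicate 3, which holds 16 of the 25 untreated control counts, the untreated fold was 5.20. The mean RELB level was 13.1 ± 4.21 TPM untreated and 13.7 ± 5.98 TPM with LPS (SD, n = 2 each).

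Outside RELB, RAPGEF4 was low in all clones. The cREL clones had 37 and 43 counts in replicate 1 and 23 and 15 in replicate 2, and their summed counts per depth were 3.87 times those of the controls untreated (2.39 to 6.44) and 14.9 times with LPS (6.45 to 42.3). The p52 clones had ratios of 2.10 untreated (1.23 to 3.63) and 14.2 with LPS (6.10 to 40.4). The p50 clones had ratios of 1.31 untreated (0.707 to 2.43) and 7.06 with LPS (2.81 to 21.1). The p65 clones had ratios of 0.996 untreated (0.566 to 1.77) and 5.34 with LPS (2.20 to 15.6). All ratios under LPS rest on the 6 control counts, and like the other knockout values of the 8 genes these ratios are a description. The reads of the RELB libraries came with an effective length, the length over which reads could start, of 1017 to 1286 bases, against 4299 bases for the longest of 15 annotated transcripts and 980 for the median one. The tables hold genes and not transcripts, so which transcript this is was not tested. Of the 27 measured genes of the cAMP and Rap list, 1 passed in 1 of the 10 knockout comparisons: PDE4B, a phosphodiesterase that breaks down cAMP. PDE4B was 30.5 to 56.3 TPM in LPS-treated controls and 7.43 to 13.9 TPM in LPS-treated p65 clones, a log2 fold of −2.20 ± 0.28 (edgeR adjusted p = 0.000367, where 0.993% of all genes passed), and the call was kept in 21 of 22 alternatives, lost in batch C alone (log2 −2.39, adjusted p = 0.228). With LPS PDE4B was also lower by value in p50 (log2 −1.49), p52 (−1.52) and cREL (−1.41), without passing. In RELB with LPS PDE4B was 42.4 and 49.6 TPM (log2 0.23). RAPGEF3, the paralog of RAPGEF4, passed in none (log2 folds −1.62 to 0.53).

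PRXL2A encodes a thioredoxin-fold protein related to the peroxiredoxins, and lies on chromosome 10, 80407829 to 80437115, plus strand. In controls PRXL2A was 19.5, 12.8 and 14.9 TPM untreated and 13.9, 9.54 and 11.4 TPM with LPS. The p52 clones had 40.97 and 37.9 TPM untreated and 46.9 and 37.7 TPM with LPS. The RELB clones had 26.5 and 42.3 TPM untreated and 26.8 and 36.5 TPM with LPS. As for MST1, all libraries of these genotypes lay above all controls, with the same shares over all genes (12.8% in untreated p52, 15.5% in untreated RELB, in CPM). The p50 and cREL clones split in the same way as each other, with 27.4 to 38.0 TPM in replicate 1 (batch B) and 14.6 to 21.4 TPM in replicate 2 (batch A), the latter overlapping the controls when untreated. The p65 clones, at 15.2 to 26.2 TPM, overlapped them too. The fitted log2 folds ran from 0.27 ± 0.27 in untreated p65 to 2.09 ± 0.34 in LPS-treated p52. Without CTR replicate 2, the lowest control, the median of the 10 folds was 0.69 in place of 1.27, and the fold in LPS-treated p52 was 1.51.

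None of the 20 genes of the peroxiredoxin and thioredoxin list passed in any of the 10 knockout comparisons, and 54 of their 200 folds were above 0, with list medians between −0.57 (untreated p65) and −0.03, where the medians of all genes lay between −0.05 and 0.02. PRDX1, the most abundant of them at 543 CPM, is a cytosolic peroxidase. The paralogs PRXL2B and PRXL2C did not pass in any comparison either, at log2 folds of −0.73 to 0.14 and −0.60 to −0.09.

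ALDH4A1 encodes the mitochondrial dehydrogenase that turns pyrroline-5-carboxylate into glutamate, the closing step of proline breakdown. It lies on chromosome 1, 18871430 to 18902781, minus strand. ALDH4A1 stood at 18.1, 17.0 and 23.7 TPM in untreated controls and 16.7, 10.5 and 20.4 TPM in LPS-treated ones. The p65 clones had 29.7, 48.0 and 44.96 TPM untreated and 26.2, 51.1 and 41.1 TPM with LPS. Each p65 library lay above each control (in untreated p65 and in CPM, 5.32% of genes tested did), with replicates 2 and 3 above replicate 1. The p50 clones (17.6 to 28.3 TPM), the p52 clones (21.6 to 28.6 TPM) and the cREL clones (14.3 to 29.8 TPM) overlapped the controls in TPM. The RELB clones, at 13.5 to 19.4 TPM, lay within their range. In CPM 8 clones stood above the controls in both treatments, and in TPM 6 did. Effective lengths, by which TPM divides the counts, were 1980 to 2818 bases in controls and 2385 to 2999 in knockouts. Fitted log2 folds ran from 0.40 ± 0.20 in untreated RELB to 1.29 ± 0.20 in LPS-treated p52, and were 1.21 ± 0.17 and 1.24 ± 0.17 in p65. Of the 13 measured genes of proline and pyrroline-5-carboxylate metabolism none passed, and 74 of their 130 folds were above 0. GLUL, glutamine synthetase, was the most abundant.

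PGGHG encodes the glucosidase that removes glucose from the disaccharide on collagen hydroxylysine, and lies on chromosome 11, 289135 to 296107, plus strand. It was low in the controls, at 1.11, 2.23 and 1.19 TPM untreated and 2.12, 3.43 and 2.13 TPM with LPS. The p65 clones had 6.10, 5.36 and 6.72 TPM untreated and 7.39, 4.39 and 4.41 TPM with LPS. The p52 clones had 5.63 and 6.96 TPM untreated and 5.42 and 9.17 TPM with LPS. All 10 of these libraries lay above all controls. Untreated and in CPM, 5.32% of genes tested lay so in p65 and 12.8% in p52. The p50 clones had 6.06 and 2.89 TPM untreated and 5.12 and 5.15 TPM with LPS, and the RELB clones 2.38 and 7.92 TPM untreated and 3.61 and 4.59 TPM with LPS. In cREL, replicate 1 had 4.56 and 4.70 TPM and replicate 2 had 1.69 and 2.59 TPM, again the clone within the control range. In CPM, RELB replicate 1 did not stand above the controls in both treatments either. Untreated it had 2.11 in log2 CPM, against 2.45 in CTR replicate 2. The fitted folds of PGGHG, in log2, ran from 0.36 ± 0.39 in LPS-treated RELB to 1.83 ± 0.33 in untreated p65. The untreated groups had the larger fold in each genotype, and the control levels were lower untreated (1.51 ± 0.624 TPM, SD, n = 3) than with LPS (2.56 ± 0.751 TPM, SD, n = 3). Of the 11 measured genes that hydroxylate, glycosylate or fold collagen, none passed, with 84 of 110 folds above 0 and list medians of −0.05 to 0.38. P4HB, a subunit of prolyl hydroxylase, was the most abundant at 2410 CPM.

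ERLIN1 encodes a membrane protein of the endoplasmic reticulum that, together with ERLIN2, delivers activated IP3 receptors to degradation. It lies on chromosome 10, 100150094 to 100188334, minus strand, and its start overlaps the end of CHUK on the same strand. ERLIN1 had the highest level of the 8, at 229, 122 and 251 TPM in untreated controls and 213, 131 and 184 TPM in LPS-treated ones, CTR replicate 2 being low in both. The p65 clones had 286, 354 and 477 TPM untreated and 270, 334 and 355 TPM with LPS, all above all controls in TPM. In CPM they did not separate fully. Untreated p65 replicate 1 had 8.73 in log2 CPM, just below the 8.74 of CTR replicate 3. ERLIN1 is therefore not among the 5.32% of genes tested that lay above all controls in untreated p65 in CPM. The clones above the controls in both treatments in CPM were p65 replicates 2 and 3, p50 replicate 2 and cREL replicate 2. The cREL clones, at 240 to 282 TPM, overlapped the highest control, and p50, p52 and RELB, at 164 to 262 TPM, overlapped the controls. The fitted log2 folds ran from 0.36 ± 0.19 in untreated RELB to 1.05 ± 0.19 in LPS-treated cREL. Without the batch term the 10 folds had a median of 0.20 in place of 0.62. ERLIN2 did not pass in any comparison (5 of 10 folds above 0, −0.46 to 0.25). Of the 24 genes of the list around degradation at the endoplasmic reticulum and sterol sensing, 135 of 240 folds were above 0. INSIG1, which holds the sterol sensor SCAP in that membrane, was lower in LPS-treated p50 (log2 −1.46 ± 0.27, edgeR adjusted p = 0.0387, where 0.129% of all genes passed; 27.7 and 69.7 TPM against 72.7 to 145 TPM in controls). The INSIG1 call was kept in 8 of 21 alternatives, with adjusted p between 6.33e-06 and 0.458. With LPS, INSIG1 had log2 folds of −0.91 in p52, −0.48 in cREL, −0.36 in p65 and 0.004 in RELB, none of which passed.

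EHMT2 encodes G9a, the enzyme that places mono- and dimethyl marks on lysine 9 of histone H3 in a complex with EHMT1. It lies on chromosome 6, 31879759 to 31897687, minus strand. EHMT2 was 23.7, 19.2 and 30.7 TPM in untreated controls and 13.3, 19.1 and 23.3 TPM in LPS-treated ones. The p65 clones had 22.6, 54.3 and 67.4 TPM untreated and 20.0, 52.4 and 47.9 TPM with LPS. Replicates 2 and 3, in batch C, lay above all controls, and replicate 1, in batch A, lay within their range. RELA mRNA differs between the same clones, so clone, batch and RELA level cannot be told apart here. In p50, p52, cREL and RELB the batch B clone had 23.2 to 43.4 TPM and the batch A clone 7.47 to 17.9 TPM, with no overlap. In log2 CPM the batch A clone was lower than the other clones of its genotype in 5 of 5 genotypes, by −1.499 to −0.78. The fitted log2 folds, 0.19 ± 0.20 to 1.14 ± 0.17, come from the fit with batch, and without that term 3 of the 10 were above 0, with a median of −0.11. Within batch C, p65 replicates 2 and 3 exceeded CTR replicates 1 and 3 by 0.86 to 1.25 in log2 CPM. Of the 25 genes of H3 lysine 9 methylation, none passed (130 of 250 folds above 0), and EHMT1 did not pass in any comparison (log2 folds −0.54 to 0.61).

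CCNA1 encodes cyclin A1, a partner of CDK2 best known from male germ cells and myeloid leukaemia. It lies on chromosome 13, 36431520 to 36442882, plus strand. CCNA1 was 44.99, 22.4 and 64.7 TPM in untreated controls and 40.2, 28.7 and 39.1 TPM in LPS-treated ones. The p65 clones had 61.9, 118 and 134 TPM untreated and 57.7, 125 and 112 TPM with LPS. Replicates 2 and 3 had 2.04 times the level of replicate 1 untreated and 2.06 times with LPS, and of the 11 knockout clones only these 2 were above all controls in both treatments in CPM. The 16 libraries of the other knockouts had 24.1 to 45.9 TPM. All 16 were above CTR replicate 2 (batch B) of the same treatment, and all but those of RELB replicate 2 were below both controls of batch C. Without the batch term 2 of the 10 folds were above 0, those of p65, and the other 8 were between −0.79 and −0.10. Within batch C the difference of p65 from CTR was 0.95 untreated and 1.37 with LPS in log2 CPM. CCNA2, the cyclin A of somatic cells, stood at a median of 150 TPM and did not pass in any comparison (median log2 fold −0.37, 1 of 10 above 0). Of the 24 measured cyclins and kinases, none passed apart from MYB, listed with them as a regulator, which was higher in LPS-treated p65 (log2 0.90 ± 0.22, edgeR adjusted p = 0.0478; 95.4 to 114 TPM against 40.3 to 57.7 TPM). The MYB call was kept in 10 of 22 alternatives (adjusted p between 0.000817 and 0.439). With LPS, MYB had log2 folds of 0.88 in p52, 0.82 in cREL, 0.34 in p50 and 0.11 in RELB, none of which passed.

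**Figure D2:**
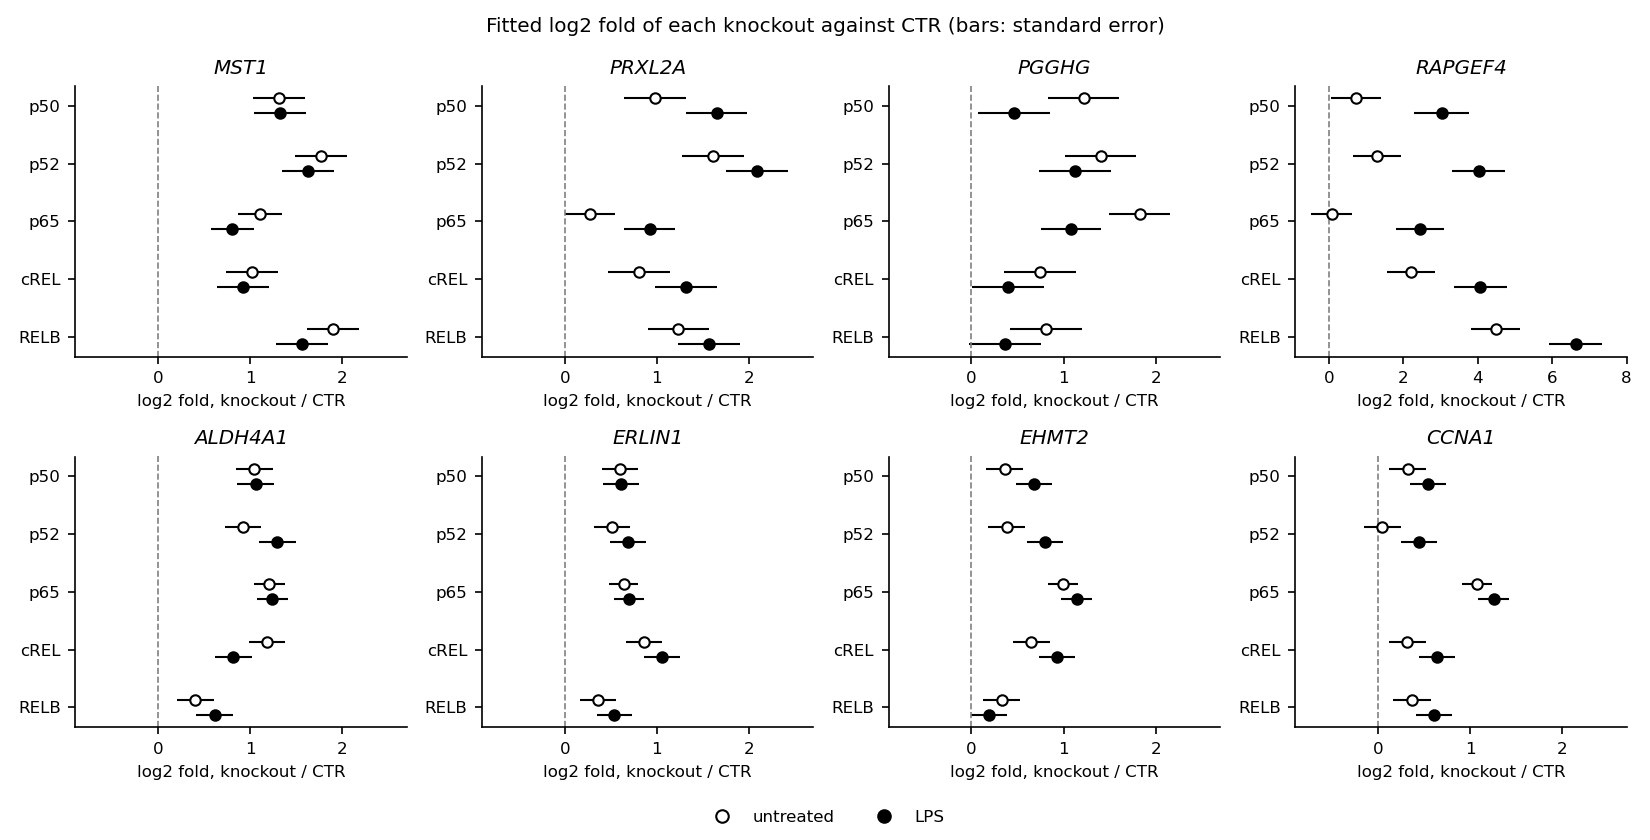
Fitted log2 fold of each knockout against CTR for the 8 genes, untreated (open) and LPS (filled), with bars of 1 standard error and a wider axis for RAPGEF4. All 80 points lie above 0 with batch as a term in the fit; the genes were chosen on these contrasts, so the points are a description.

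The clones differed in how many of the 8 genes they carried above the controls. The number was 7 in p65 replicate 2, 6 in p65 replicate 3 and in cREL replicate 1, 5 in p52 replicate 1, and 4 in both p50 clones, p52 replicate 2 and RELB replicate 2. It was 3 in RELB replicate 1 and in p65 replicate 1, and 2 in cREL replicate 2. Over all genes tested, each clone had 9.29 to 16.3% of genes above all controls. The clones with 3 or fewer were all in batch A, where 5 clones had 2 to 4 of the 8 genes, while the 6 clones of batches B and C had 4 to 7. Within a genotype, MST1, PRXL2A, ALDH4A1 and EHMT2 were lower in the batch A clone in 5 of 5 genotypes. For PRXL2A in p65 the difference was only −0.002 in log2 CPM. RAPGEF4 was lower in 4, PGGHG and CCNA1 in 3 and ERLIN1 in 2 of 5. No share over all genes is given for these counts. Batch A holds no control, so its clones were set against controls of other batches, and batch and clone cannot be told apart within a genotype.

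Within batch B, where 1 clone each of p50, p52, cREL and RELB met CTR replicate 2, all 8 genes were higher in 8 of 8 comparisons. The differences in log2 CPM were 1.44 to 2.37 for PRXL2A, 1.23 to 2.06 for MST1, 0.54 to 1.24 for PGGHG and 0.52 to 1.08 for ERLIN1. They were 0.17 to 1.47 for ALDH4A1, 0.25 to 0.84 for EHMT2, 0.21 to 0.70 for CCNA1 and 1.19 to 6.21 for RAPGEF4. These comparisons share 1 control clone, so they repeat its deviation. They are also part of the comparison that chose the genes, so they are a description. No share over all genes is given for them. Within batch C, where p65 replicates 2 and 3 met CTR replicates 1 and 3, ALDH4A1, PGGHG, ERLIN1, MST1, EHMT2 and CCNA1 were higher both untreated and with LPS. PRXL2A differed by −0.01 untreated and 0.59 with LPS, and RAPGEF4 by −0.14 and 1.31. Leaving out CTR replicate 2 kept 77 of the 80 fitted values above 0, and leaving out p65 replicate 1 kept 79.

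**Figure D3:**
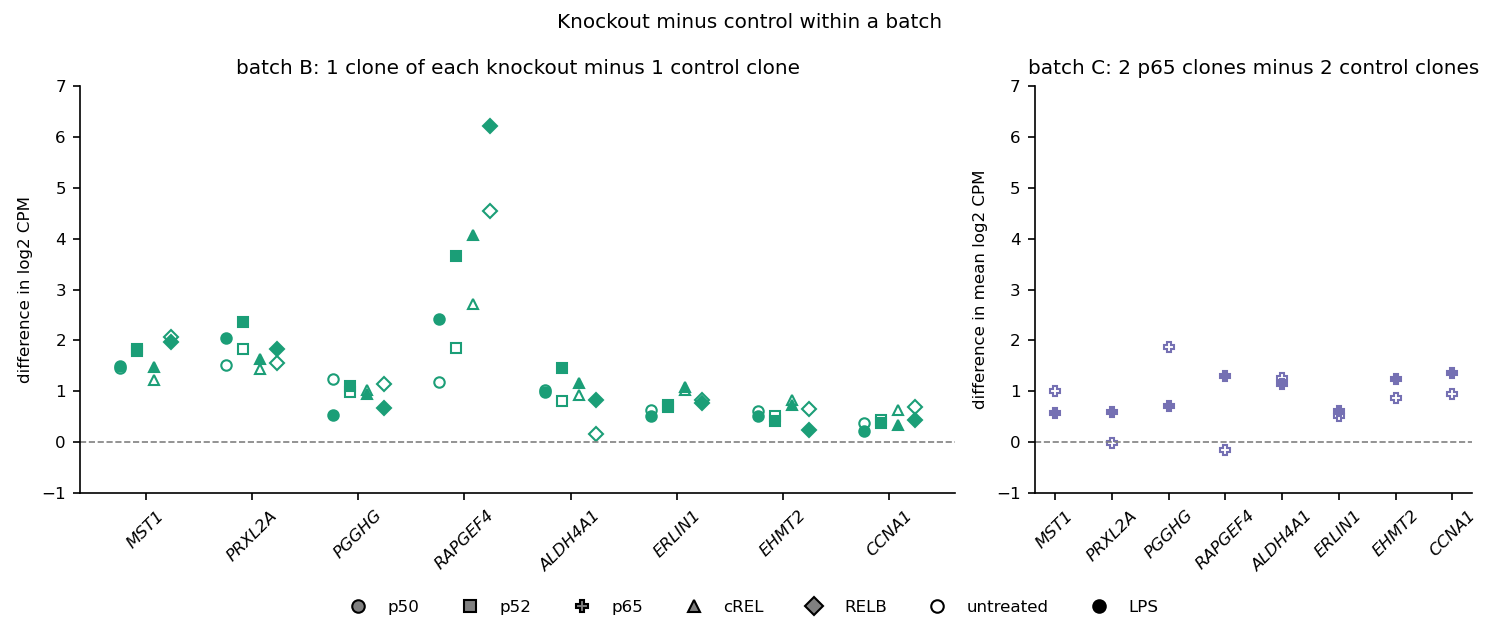
Knockout minus control in log2 CPM for the 8 genes, within batch B (1 clone of each of 4 knockouts against CTR replicate 2) and within batch C (mean of p65 replicates 2 and 3 against the mean of CTR replicates 1 and 3), with open symbols for untreated and filled for LPS. All batch B points lie above 0, and in batch C untreated PRXL2A (−0.01) and RAPGEF4 (−0.14) lie below it. The batch B points share 1 control clone, and the genes were chosen on knockout against control, so the points are a description.

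With LPS, a contrast not used in the choice although its libraries were, none of the 8 genes passed the threshold. In the 48 tests (8 genes, 6 genotypes), 0 passed by edgeR's quasi-likelihood test, by DESeq2 or by limma voom, against 0.102% of all genes over the same 6 comparisons, and 4 of 48 had an unadjusted p under 0.05, against 2.51% of all tests. The lowest adjusted p, 0.375 in edgeR, was that of RAPGEF4 in controls (log2 −2.09 ± 0.65), where the summed counts were 25 untreated and 6 with LPS. The other 3 were EHMT2 in RELB (log2 −0.52 ± 0.20) and in CTR (−0.38 ± 0.16) and ALDH4A1 in cREL (−0.46 ± 0.20). By clone, EHMT2 was lower with LPS in 12 of 14 and ERLIN1 in 10 of 14, and PGGHG was higher in 10 of 14. The median difference was −0.17, −0.03 and 0.21 in log2 CPM for these 3 genes. In the same fit PDE4B, of the cAMP list, passed in CTR (0.408% of all genes) and in RELB (0.129%), and in CTR its mean was 9.77 ± 3.84 TPM untreated and 40.2 ± 14.1 TPM with LPS (SD, n = 3 each).

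The LPS response of each knockout was also set against that of CTR. This is the difference between the LPS and the untreated contrast of knockout with control, which chose the genes. It is therefore not independent of the choice. None of 40 differences passed in edgeR's quasi-likelihood test, DESeq2 or limma voom, against 0.00322% of all genes, and 5 of 40 had an unadjusted p under 0.05, against 2.69% of all tests. All 5 were RAPGEF4, in each of the 5 knockouts, at 1.85 ± 0.86 to 2.73 ± 0.88 in log2, and they share the controls in which its summed counts were 25 and 6. Every adjusted p was 1. For the other 7 genes the differences lay between −0.76 (PGGHG in p50) and 0.67 (PRXL2A in p50) with standard errors of 0.22 to 0.51. With each clone as a block, none of the 48 LPS tests or 40 differences passed either.

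**Figure D4:**
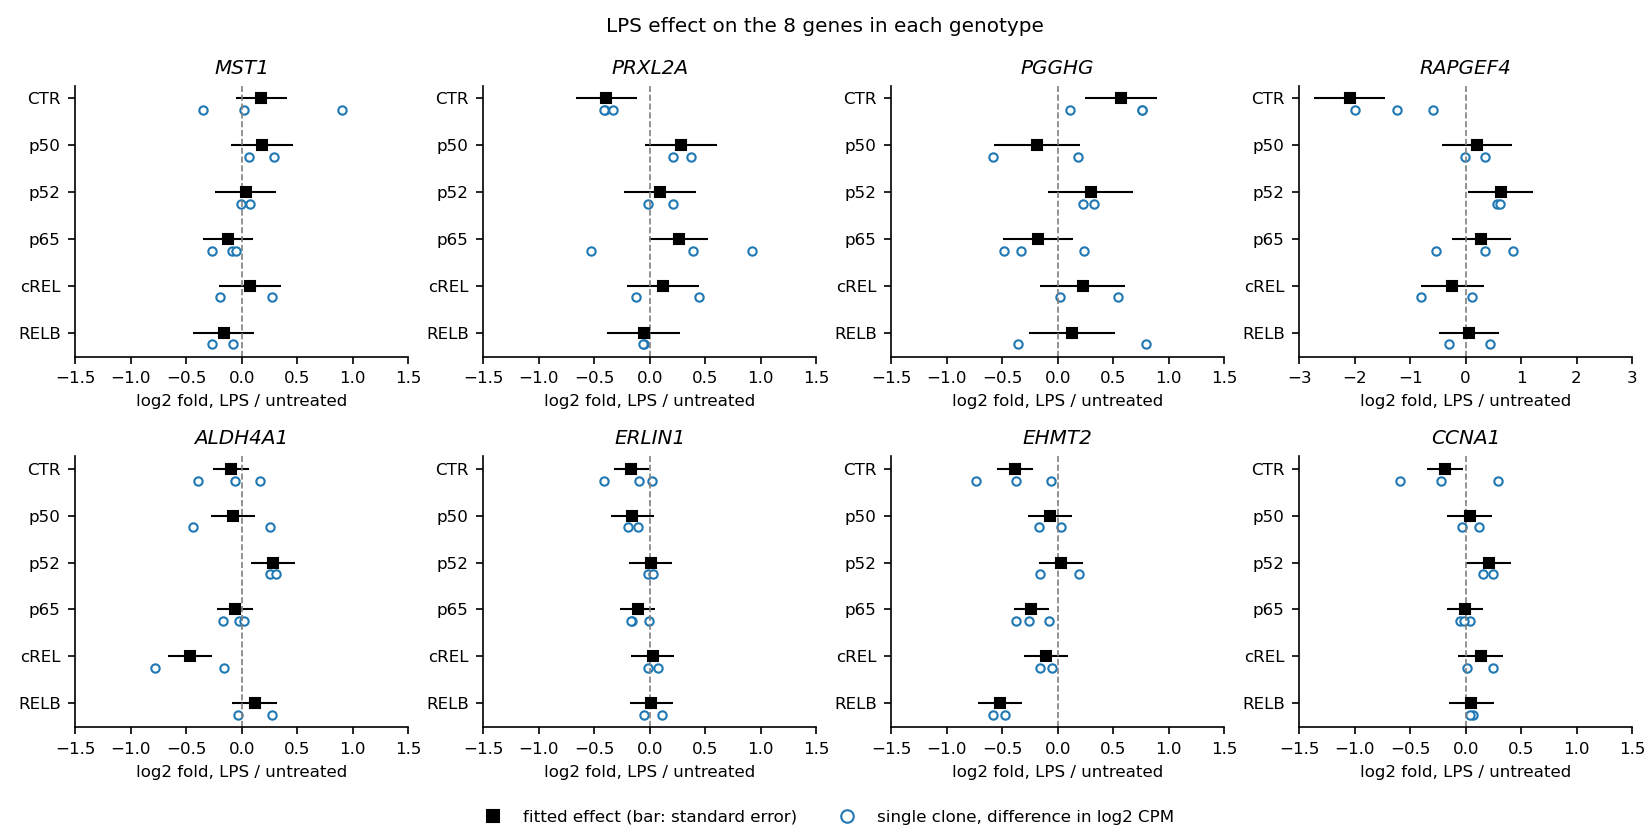
Log2 fold of LPS against untreated in each genotype for the 8 genes, as fitted (squares, bars of 1 standard error) and in each clone (circles, difference in log2 CPM), with a wider axis for RAPGEF4. RAPGEF4 in CTR, at −2.09, lies farthest from 0.

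The mean effective length of a gene, an abundance-weighted transcript length that the choice did not use, did not pass for any of the 8 genes. None of 40 tests (8 genes, 5 knockouts against CTR, over clone means) passed in limma, against 0.00215% of all genes, and 0 of 40 had an unadjusted p under 0.05, where 5.24% of all tests did. The log2 ratios lay within −0.02 to 0.03 for ERLIN1 and reached −0.02 for CCNA1. They were 0.10 to 0.20 for ALDH4A1, 0.01 to 0.22 for MST1, 0.03 to 0.07 for PRXL2A, −0.12 to −0.01 for EHMT2 and −0.24 to 0.08 for PGGHG. RAPGEF4, estimated from few reads outside RELB, spread from −0.37 to 0.79.

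The tested genes next to the 8 on the chromosome did not pass in any of 160 comparisons with edgeR (23 at an unadjusted p under 0.05, where 9.49% of all tests had one, 3 passing in DESeq2 and 0 in limma voom). CHUK, which encodes the kinase IKK alpha and overlaps the start of ERLIN1, had log2 folds of −0.61 to 0.18. For RAPGEF4 the neighbours were PDK1 (−0.25 to 0.41) and MAP3K20 (median −0.23, 1 of 10 above 0). For EHMT2 they were C2 (−0.12 to 0.66) and SLC44A4 (−3.26 to 0.86 at 1.44 CPM). For ALDH4A1 they were IFFO2 (−1.20 to 0.15) and ACTL8 (−2.19 to 0.37), for PRXL2A TSPAN14 (−0.27 to 0.37) and MAT1A (−0.92 to 2.22). For PGGHG they were PSMD13 (−0.11 to 0.21) and IFITM2 (−1.18 to 0.10), and DNMBP-AS1, on the other side of ERLIN1, had −0.95 to 1.86 at 0.353 CPM. For CCNA1 they were RFXAP (−1.29 to 0.03) and SPART-AS1, an antisense gene at 1.40 CPM that was higher by value in 10 of 10 comparisons (0.66 to 1.77, lowest adjusted p = 0.329 in edgeR).

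Over the 14 clone means of log2 CPM, the 8 genes were compared in pairs. Among 28 pairs, Pearson's r was highest for PRXL2A with MST1 (0.93), and each was the gene most like the other among 9745 genes compared. ALDH4A1 went with ERLIN1 (0.79), CCNA1 (0.76) and EHMT2 (0.70), CCNA1 with ERLIN1 (0.74) and EHMT2 (0.71), and MST1 with PGGHG and RAPGEF4 (0.74 each). PRXL2A and CCNA1 had the lowest value (−0.35). These are descriptions over 14 clones that share genotypes, batches and 1 normalisation. The 8 genes were all chosen as higher in knockout than in control clones, so r between them is not independent of that choice. Outside the 8, the genes most alike were TMEM222 (0.89) and ADGRE2 (0.88) for PRXL2A, SPECC1 (0.91) and CSF3R (0.88) for MST1, SNHG20 (0.89), VCPIP1 (0.88) and EVL (0.87) for RAPGEF4, and MAN2C1 (0.87), THTPA (0.87) and C11orf49 (0.85) for PGGHG. For ALDH4A1 they were ADCK1 (0.90), MAN1B1 (0.90) and MANBA (0.89), and for ERLIN1 P2RY8 (0.95) and DROSHA (0.93). For EHMT2 they were GLG1 (0.95), TTLL12 (0.94) and NOMO1 (0.94), and for CCNA1 USP28 (0.92), SLC43A1 (0.92) and ARFGAP2 (0.91).

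**Figure D5:**
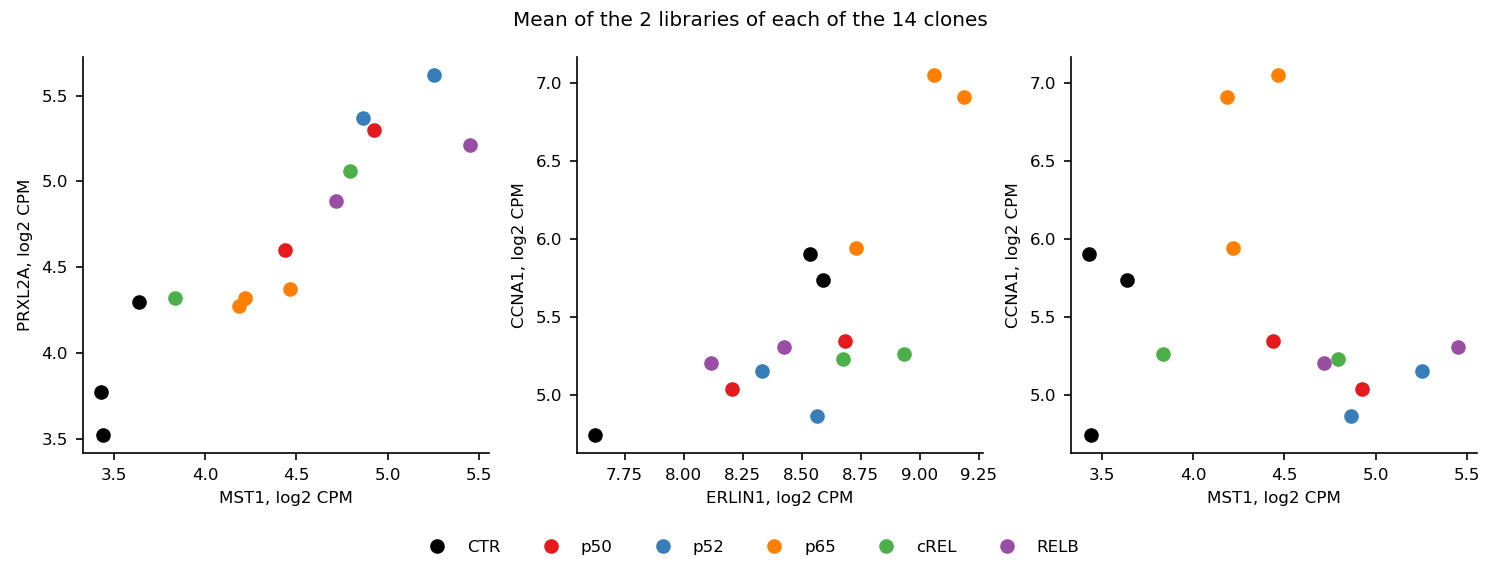
Mean log2 CPM of the untreated and LPS library of each of the 14 clones, coloured by genotype, for MST1 against PRXL2A, ERLIN1 against CCNA1 and MST1 against CCNA1. MST1 and PRXL2A vary together over the clones (r = 0.93), and 2 p65 clones stand highest in CCNA1 in the other panels.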

How the data were processed

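RNA of 28 libraries from 14 U937 clones was amplified from oligo(dT)-primed cDNA, per the labels' protocols. Estimated counts and TPM per gene symbol were deposited by the authors, and FastQC 0.11.7, Salmon 0.11.3 and build GRCh38 are named in the submitters' processing notes. The deposited effective length per gene, in bases, is an abundance-weighted transcript length and has another unit than the counts. The sources used here do not name the annotation release, strand setting or filters. Amplified reads without molecular identifiers are not independent molecules, so the 95% intervals of count ratios cover counting error only.

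The estimated counts were rounded to whole numbers and fitted with edgeR 4.0.16 (R 4.3.3; filterByExpr with a minimum count of 10 and total of 15; TMM; robust quasi-likelihood; 12 groups and additive batch; 14 residual degrees of freedom), with Benjamini-Hochberg adjustment over 18624 genes in each comparison and a threshold of 0.05. The standard error is the size of the log2 fold divided by the square root of F. Effective lengths were tested with limma 3.58.1 on clone means. Log2 CPM used a prior count of 2. The fit was tested on simulated data. The members and gene lists were chosen with earlier results of these data known. Named were all 8 genes, the called and the most abundant genes of each list, both neighbours, close paralogs and, for each of the 8, up to 3 most correlated genes with a mean of at least 5 CPM. Alternatives were other normalisations, DESeq2 1.42.0, limma voom, fits without the filter or the batch term, fits of batch C, blocks, clone sums and leaving out each clone. The 2 libraries of a clone pair by origin, and their deviations from the group means correlated at 0.203 to 0.441 in all 14 clones. Some results that this rule names are not reported here.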

Additional observations from a re-analysis of the deposited data

How the results depend on the processing

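Of the 80 knockout values of the 8 genes, 19 passed the threshold with edgeR. That count was 43 with DESeq2, 35 without the filter on low counts, 8 with an effective length offset, and 3 without the batch term. Clone sums, which merge the treatments, gave 3 of 40, and batch C alone gave 0 of 16. Leaving out 1 clone gave 5 to 23, the lowest without CTR replicate 2 and the highest without p65 replicate 1. The number of values above 0, 80 of 80, was 62 without the batch term and 77 to 80 when 1 clone was left out. Among the genes of the lists, 4 calls became 61 without the filter, 36 with DESeq2, 8 with limma voom, 1 without the batch term, and 0 in batch C alone and from clone sums, which hold fewer comparisons. Leaving out 1 clone gave 1 to 29, with 29 without p65 replicate 1 and 1 without CTR replicate 2, CTR replicate 3, p52 replicate 1 or p52 replicate 2. Among neighbours, 0 calls became 3 with DESeq2, 6 without the filter, and 0 to 1 when 1 clone was left out (1 without p65 replicate 2). The cause of these shifts was not tested. With the label number as a replicate block beside batch, 30 values of the 8 genes and 24 of the list genes passed. Same-numbered clones of different genotypes share only a number, since their deviations correlated at −0.239 to 0.280. With each clone as a replicate block, the LPS tests and the differences in LPS response of the 8 genes gave 0 calls, as in the other alternatives run. Of 1696 alternative values of single genes, 94 moved by more than 1 SD and 30 were below 0, of which 18 without the batch term. None of these 30 belonged to a value that passed the threshold as reported. Few counts limit RAPGEF4 outside RELB.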
